A study of Mus musculus with 6 samples.

Results

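Formyl peptide, complement and lipid attractant receptors are surface proteins by which myeloid cells sense where to move. The listed set holds 7 such genes that are not chemokine receptors: the formyl peptide receptor Fpr2, the anaphylatoxin receptors C5ar1 and C3ar1, the platelet-activating factor receptor Ptafr, the sphingosine 1-phosphate receptors S1pr1 and S1pr4, and the nucleotide receptor P2ry2. They were taken by gene symbol from the array's annotation, out of 19057 named genes, and were read by 9 probes, 2 each for Ptafr and P2ry2 and 1 each for the others. Total RNA came from 2 populations of mouse bone marrow, with 3 arrays each: monocyte-like precursors of granulocytes (MLPG, the Ly6C high cells) and granulocytic progenitors (GP, the Ly6C low cells). The labels name no strain, age, tumour or treatment for either group, and they do not say whether the 3 arrays of a group came from separate mice, so p-values measure the spread between these arrays, which may be technical. The series title concerns the accumulation in cancer of PMN-MDSC, suppressor cells of granulocyte type, but no tumour is named for these samples. Ly6c1, a gene of the sort antigen, read 53055, 43067 and 46621 on MLPG arrays 1 to 3, against 35395, 40412 and 31550 on GP arrays 1 to 3; every MLPG array was above every GP array, and the log2 difference of 0.41 did not pass the test (adjusted p = 0.20, limma).

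All 7 receptors belong to the rhodopsin-like family of G protein-coupled receptors. Fpr2, C5ar1 and C3ar1 signal mainly through Gi proteins. The beta-gamma subunits of Gi proteins activate phosphoinositide 3-kinase gamma, phospholipase C beta and, further on, Rac and the actin skeleton. Arrestins, receptor kinases and RGS proteins end the signal. In neutrophils, formyl peptides from bacteria and mitochondria and the complement fragment C5a are end-point attractants that override others. S1pr1 guides lymphocytes, and in the mouse also other leukocytes, out of tissues into blood, S1pr4 is found mainly on blood cells, and P2ry2 senses ATP and UTP, also ATP that a migrating neutrophil releases itself.

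Fpr2 was lower in MLPG than in GP, and it was the 1 receptor of the 7 that passed the test. Its normalized intensity was 12346, 13168 and 8510 on MLPG arrays 1 to 3, against 45825, 32244 and 32407 on GP arrays 1 to 3. Every MLPG array lay below every GP array, and the gap between the groups was wider than the range of either group. The means were 11342 ± 2486 in MLPG and 36825 ± 7794 in GP (SD, n = 3 each), a log2 difference, MLPG minus GP, of -1.70 (SE 0.20, 95% interval -2.16 to -1.25), or 3.26-fold lower in MLPG. This gave an adjusted p of 0.018 (limma, Benjamini-Hochberg over 15440 features), rank 21 by p among all features. A sorted population is a bulk sample, so fewer Fpr2-expressing cells and less Fpr2 RNA per cell cannot be told apart.

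Called features, at an adjusted p under 0.05, made up 0.512% of the 15440, with 0.369% lower and 0.142% higher in MLPG. Of the 7 receptors, 5 were bright enough to be tested with them, and 1 of the 5 was called. The members were listed when the result for Fpr2 was already known, so this count describes the list and supports nothing further. The call of Fpr2 held without GP replicate 1 or 2 and was lost without MLPG replicate 1 (adjusted p = 0.11), MLPG replicate 2 (0.058), MLPG replicate 3 (0.065) or GP replicate 3 (0.059), in limma. The log2 difference stayed between -1.82 and -1.51 over these 6 fits. The brightest Fpr2 value, on GP replicate 1, was at 63.9% of the highest value on the arrays, and saturation was not tested.

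**Figure D1:**
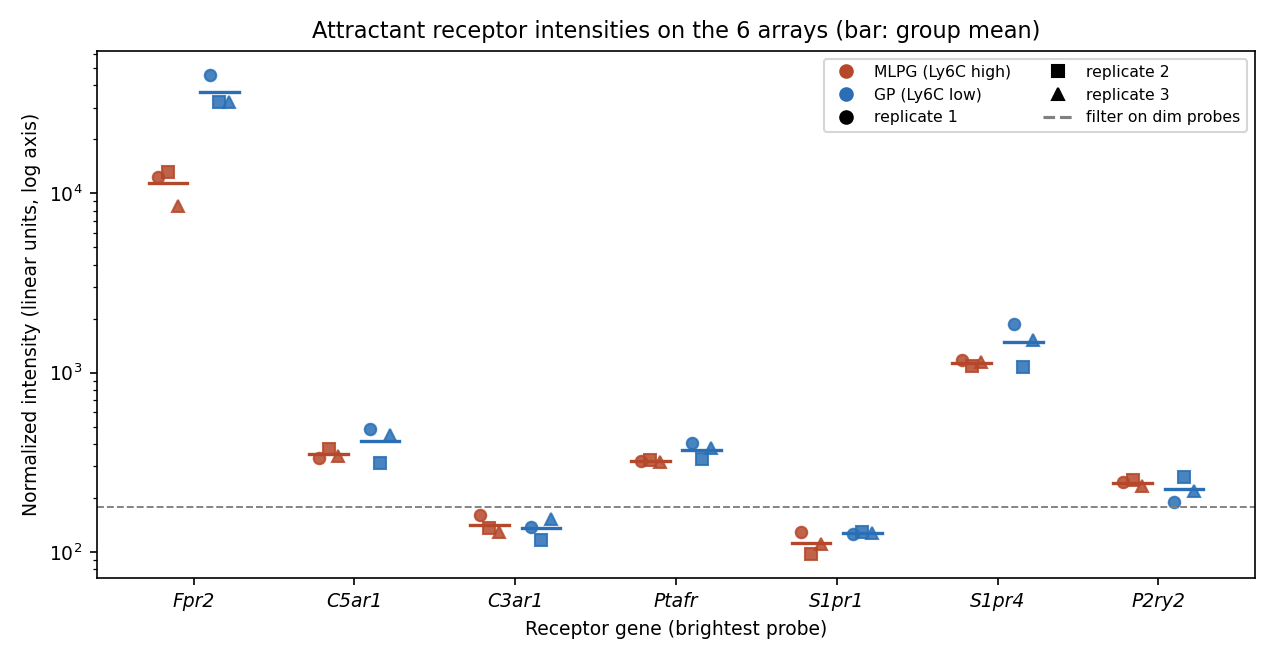
Normalized intensity (log axis) of the brightest probe of each receptor on the 6 arrays, MLPG in red on the left and GP in blue on the right of each gene, with symbols for replicates 1 to 3, bars for group means and a dashed line at the filter on dim probes, 179. Fpr2 separates the groups, from 8510 to 13168 in MLPG and from 32244 to 45825 in GP, while the groups of C5ar1, C3ar1, S1pr1, S1pr4 and P2ry2 overlap.

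Formyl peptide receptors form a gene cluster in the mouse, so related transcripts could in principle reach the Fpr2 probe. Probes for 4 relatives, Fpr-rs3, Fpr-rs4, Fpr-rs6 and Fpr-rs7, all lay below the filter, a normalized intensity of 179, on every array, with group means of 124 to 155 in MLPG and 133 to 157 in GP. No probe is named for Fpr1 in the annotation used here, and Fpr1 was not analysed. What the Fpr2 probe reads of other Fpr transcripts was not tested.

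The start-site regions of Fpr2, the called receptor, and of C5ar1, the other receptor of a classical end-point attractant, are shown because they hold different numbers of matches to motifs of myeloid factors. The sequences are from RefSeq on GRCm38.p6 and run from 250 bases before to 10 bases after the annotated start, 5′ to 3′ on the strand of the gene. Capitals mark matches on either strand to TTNNGNAA, a loose form of the site of C/EBP factors, which drive granulocyte genes, or to GAGGAA, a core site of PU.1, a factor of all myeloid cells. The Fpr2 region lies at chr17:17887574-17887833 on the plus strand and the C5ar1 region at chr7:16259329-16259588 on the minus strand.
Fpr2: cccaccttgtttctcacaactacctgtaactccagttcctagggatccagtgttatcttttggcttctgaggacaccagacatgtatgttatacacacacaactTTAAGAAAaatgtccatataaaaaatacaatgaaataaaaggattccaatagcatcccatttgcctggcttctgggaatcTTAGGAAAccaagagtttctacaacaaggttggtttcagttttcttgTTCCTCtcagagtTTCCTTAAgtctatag
C5ar1: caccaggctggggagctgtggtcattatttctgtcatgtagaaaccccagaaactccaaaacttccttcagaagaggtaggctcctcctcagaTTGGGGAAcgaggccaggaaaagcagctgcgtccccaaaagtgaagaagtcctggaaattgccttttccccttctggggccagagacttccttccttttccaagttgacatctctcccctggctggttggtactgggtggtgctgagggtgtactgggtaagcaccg

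The Fpr2 region held 3 matches to TTNNGNAA, which begin 146, 66 and 6 bases before the start, and 1 match to GAGGAA, which begins 19 bases before it. The C5ar1 region held 1 match to TTNNGNAA, at 157 bases before the start, and 0 to GAGGAA. These are common strings: 37.7% of the 32851 regions of this length in the table hold TTNNGNAA at least once, 2.81% hold it 3 or more times, and 24.1% hold GAGGAA. No 2 of the marked matches overlap. Of the 7 receptors, 6 had a region in the table, all but S1pr1. S1pr4 and C3ar1 held neither string, and Ptafr held GAGGAA once. The regions of the 2 annotated starts of P2ry2 overlap and share 1 and the same TTNNGNAA match. The other string searched, GGGNGTG, which is read by Krüppel-like factors and overlaps itself, was found in 26.9% of all regions and among these only in that of Ptafr, at 2 overlapping places. A match is a string of letters and not a shown binding site.

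C5ar1, the receptor that drives neutrophils toward C5a, did not pass the test. Its intensity was 336, 376 and 341 on MLPG arrays 1 to 3, against 481, 314 and 450 on GP arrays 1 to 3. The MLPG values lay close together, and GP replicate 2 was below all of them, so the groups overlapped. The log2 difference was -0.22 (95% interval -0.59 to 0.15; adjusted p = 0.58, limma), an interval that reaches from 1.51-fold lower to 1.11-fold higher in MLPG. Single GP arrays set its size: it was -0.41 without GP replicate 2 (adjusted p = 0.097) and -0.10 without GP replicate 1 (0.87). C5ar2, a second C5a receptor that does not couple to G proteins and was not on the list, averaged 513 ± 38.5 in MLPG and 595 ± 50.5 in GP (log2 difference -0.21, adjusted p = 0.39, limma).

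C3ar1, the receptor of the anaphylatoxin C3a, was dim on all 6 arrays. It read 160, 135 and 128 on MLPG arrays 1 to 3, against 137, 117 and 152 on GP arrays 1 to 3. All 6 values lay below the filter, so C3ar1 entered only the fit without it, with a log2 difference of 0.06 (95% interval -0.21 to 0.34; adjusted p = 0.92, limma). The sign of this difference turned without MLPG replicate 1 (-0.034) or GP replicate 2 (-0.039). The lowest value on any array is 88.2, so a transcript that is absent does not read 0 here.

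Ptafr, which binds the phospholipid platelet-activating factor, was read by 2 probes that were both above the filter. The brighter one gave 323, 324 and 315 on MLPG arrays 1 to 3, against 407, 330 and 380 on GP arrays 1 to 3. The groups did not overlap, but the gap between the highest MLPG array and GP replicate 2 was small beside the spread of GP. The log2 difference was -0.21 (95% interval -0.44 to 0.02; adjusted p = 0.39, limma). On the dimmer probe the means were 264 ± 16.9 in MLPG and 280 ± 27.1 in GP, the groups overlapped, and the difference was -0.08.

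All MLPG arrays below all GP arrays was the pattern of 2 of the 5 tested receptors, Fpr2 and Ptafr, and of 9.66% of all features. The reverse, all MLPG arrays above all GP arrays, was seen in 0 of the 5 and in 10.7% of all features.

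S1pr4, a sphingosine 1-phosphate receptor of blood cells, was well above the filter. It read 1175, 1085 and 1151 on MLPG arrays 1 to 3, against 1856, 1068 and 1523 on GP arrays 1 to 3. GP replicates 1 and 3 were above every MLPG array, and GP replicate 2 was below every one. The log2 difference was -0.35 (95% interval -0.77 to 0.08; adjusted p = 0.44, limma). It came to -0.56 without GP replicate 2 (adjusted p = 0.062) and to -0.17 without GP replicate 1 (0.76), so single GP arrays set its size.

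S1pr1, the receptor of the same lipid that governs exit of lymphocytes from lymphoid organs, was at the low end of the arrays. Its intensity was 129, 97.4 and 111 on MLPG arrays 1 to 3, against 126, 128 and 127 on GP arrays 1 to 3. The mean over the 6 arrays stood at percentile 1.23 of all probes, and the groups overlapped. In the fit without filter the log2 difference was -0.18 (95% interval -0.43 to 0.06; adjusted p = 0.63, limma). A value this low gives no order of the groups.

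P2ry2, a receptor of extracellular ATP and UTP, was the 1 tested receptor with a difference above 0. It read 246, 252 and 233 on MLPG arrays 1 to 3, against 190, 261 and 219 on GP arrays 1 to 3. The highest value was that of GP replicate 2, and the groups overlapped. The log2 difference was 0.14 (95% interval -0.15 to 0.42; adjusted p = 0.67, limma), and it was 0.025 without GP replicate 1 and 0.26 without GP replicate 2. The second P2ry2 probe lay below the filter, with means of 144 ± 5.57 in MLPG and 145 ± 5.66 in GP.

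GP replicate 2 was the GP array nearest to the MLPG mean for all 5 tested receptors, an observation made after the values were seen. For Fpr2 this was nearly a tie, with 32244 on GP replicate 2 and 32407 on GP replicate 3. Over all features GP replicate 2 was nearest for 39.1%, GP replicate 3 for 38.2% and GP replicate 1 for 22.7%. On the first principal component of all features, with 49.6% of the variance, GP replicates 1 to 3 lay at -30.1, -6.37 and -13.1 and MLPG replicates 1 to 3 at 12.4, 15.0 and 22.2. Taken by replicate number, MLPG minus GP, the log2 differences of Fpr2 were -1.89, -1.29 and -1.93 for numbers 1 to 3. Those of S1pr4 were -0.66, 0.02 and -0.40, and those of C5ar1 were -0.52, 0.26 and -0.40. For both, number 2 was the pair that ran the other way.

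Genes with a profile most like that of Fpr2 were Timp2, Mmp25 and Slfn1, out of 10939 named genes searched over the 6 arrays. Likeness was the root mean square difference between log2 profiles after each gene's own mean was removed, and it was 0.12 for Timp2, 0.22 for Mmp25 and 0.22 for Slfn1, beside a root mean square of 0.89 for Fpr2 itself. Timp2, an inhibitor of metalloproteinases, read 576, 644 and 466 on MLPG arrays 1 to 3, against 2117, 1478 and 1808 on GP arrays 1 to 3. All 3 were called lower in MLPG (adjusted p = 0.012 for Timp2, 0.042 for Mmp25 and 0.025 for Slfn1, limma). Each of these calls was lost without any 1 of the MLPG arrays (adjusted p from 0.056 to 0.16), and those of Mmp25 and Slfn1 also without GP replicate 3 (0.13 and 0.094). The profiles share arrays, so likeness is a description of these 6 arrays. Nearest to S1pr4 were Arhgap4 (0.049), Stap2 (0.058) and Plin4 (0.059), nearest to C5ar1 Ccdc125 (0.056), Rnf25 (0.059) and Lrrc27 (0.062), nearest to Ptafr Tsen34 (0.019), Myh9 (0.021) and Tmod3 (0.022), and nearest to P2ry2 Icam2 (0.021), Lancl1 (0.034) and Ctu1 (0.034). Of these 12 genes 0 were called (limma), and Plin4 alone had an unadjusted p under 0.05.

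**Figure D2:**
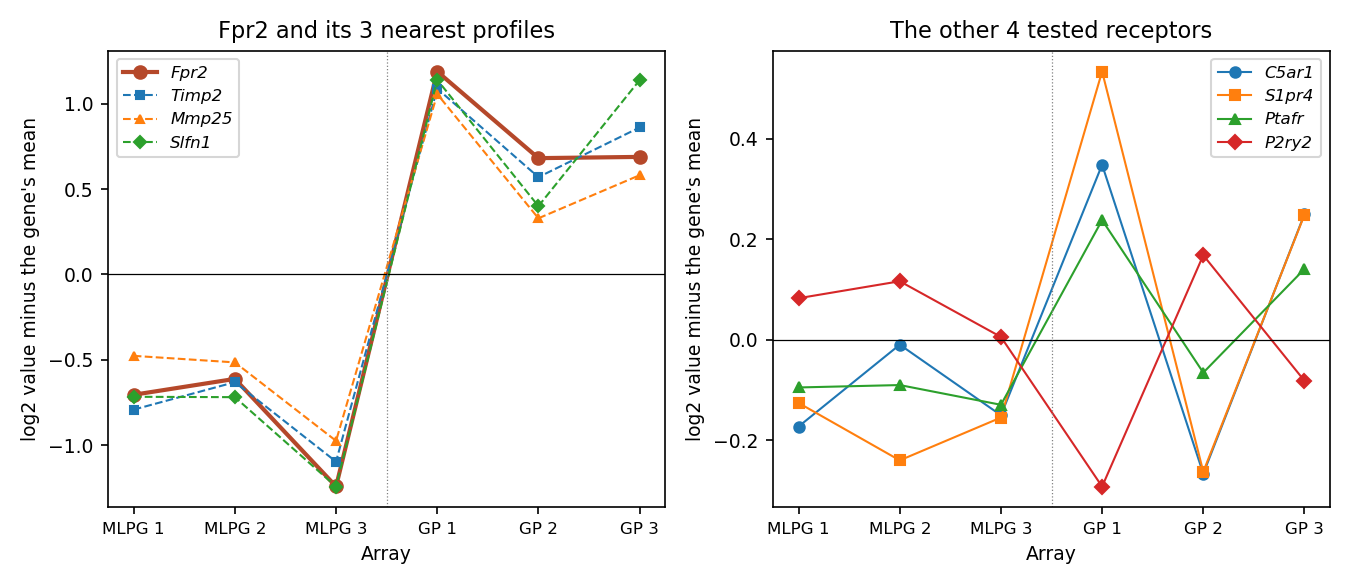
Log2 value minus the gene's own mean on each of the 6 arrays, MLPG left and GP right of the dotted line, with Fpr2 and its 3 nearest genes on the left and the other 4 tested receptors on the right. Fpr2, Timp2, Mmp25 and Slfn1 are below 0 on every MLPG array and above 0 on every GP array, while C5ar1, S1pr4 and Ptafr are high on GP replicates 1 and 3 and below 0 on GP replicate 2.

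Other attractant and nucleotide receptors of the same families gave 1 call, in the opposite direction to Fpr2. Of 33 listed, 7 had no named probe, 9 lay below the filter and 17 were tested. Cysltr1, a receptor of cysteinyl leukotrienes, read 427, 383 and 450 on MLPG arrays 1 to 3, against 195, 251 and 253 on GP arrays 1 to 3. Every MLPG array was above every GP array, and the log2 difference was 0.86 (SE 0.13, 95% interval 0.56 to 1.15; adjusted p = 0.037, limma), 1.81-fold higher in MLPG. Its call was lost without MLPG replicate 1 (adjusted p = 0.17), MLPG replicate 2 (0.091), MLPG replicate 3 (0.16) or GP replicate 3 (0.094). None of the 17 was called lower (limma, 0 genes, with 5 lower and 2 higher at an unadjusted p under 0.05), and 14.7% of all features reached that unadjusted p. The median log2 difference of the 17 was -0.07, beside 0.01 over all features.

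P2ry13, P2ry14 and Lpar6 did not pass, and each passed when replicate number entered the model as a block, a setting that called 4.08% of all features. P2ry13, a receptor of ADP, averaged 651 ± 99.0 in MLPG and 1351 ± 359 in GP (log2 difference -1.03; adjusted p = 0.070 unblocked and 0.019 blocked, limma). P2ry14, a receptor of UDP-sugars, was at 287, 384 and 345 on MLPG arrays 1 to 3 and at 497, 1617 and 1565 on GP arrays 1 to 3 (log2 difference -1.68; adjusted p = 0.14 unblocked and 0.015 blocked), with its 3 probes giving differences from -1.68 to -0.03. Lpar6, a receptor of lysophosphatidic acid, averaged 4705 ± 1430 in MLPG and 2748 ± 239 in GP (log2 difference 0.74; adjusted p = 0.18 unblocked and 0.028 blocked). Unblocked, P2ry13 was also called without GP replicate 2 (adjusted p = 0.028) and P2ry14 without GP replicate 1 (log2 difference -2.24, adjusted p = 0.00047), in limma. Ltb4r1, the high-affinity receptor of the neutrophil attractant leukotriene B4, averaged 20491 ± 2089 in MLPG and 25897 ± 3260 in GP (log2 difference -0.34, adjusted p = 0.27, limma). S1pr2, which unlike S1pr1 and S1pr4 mostly restrains migration, averaged 5108 ± 627 in MLPG and 4294 ± 319 in GP, a log2 difference of 0.25 (95% interval -0.02 to 0.51; adjusted p = 0.37, limma). Among the 3 sphingosine 1-phosphate receptors with a probe above the filter, S1pr2 at 0.25, S1pr4 at -0.35 and S1pr5 at -0.06, 0 were called and 0 had an unadjusted p under 0.05 (limma).

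**Figure D3:**
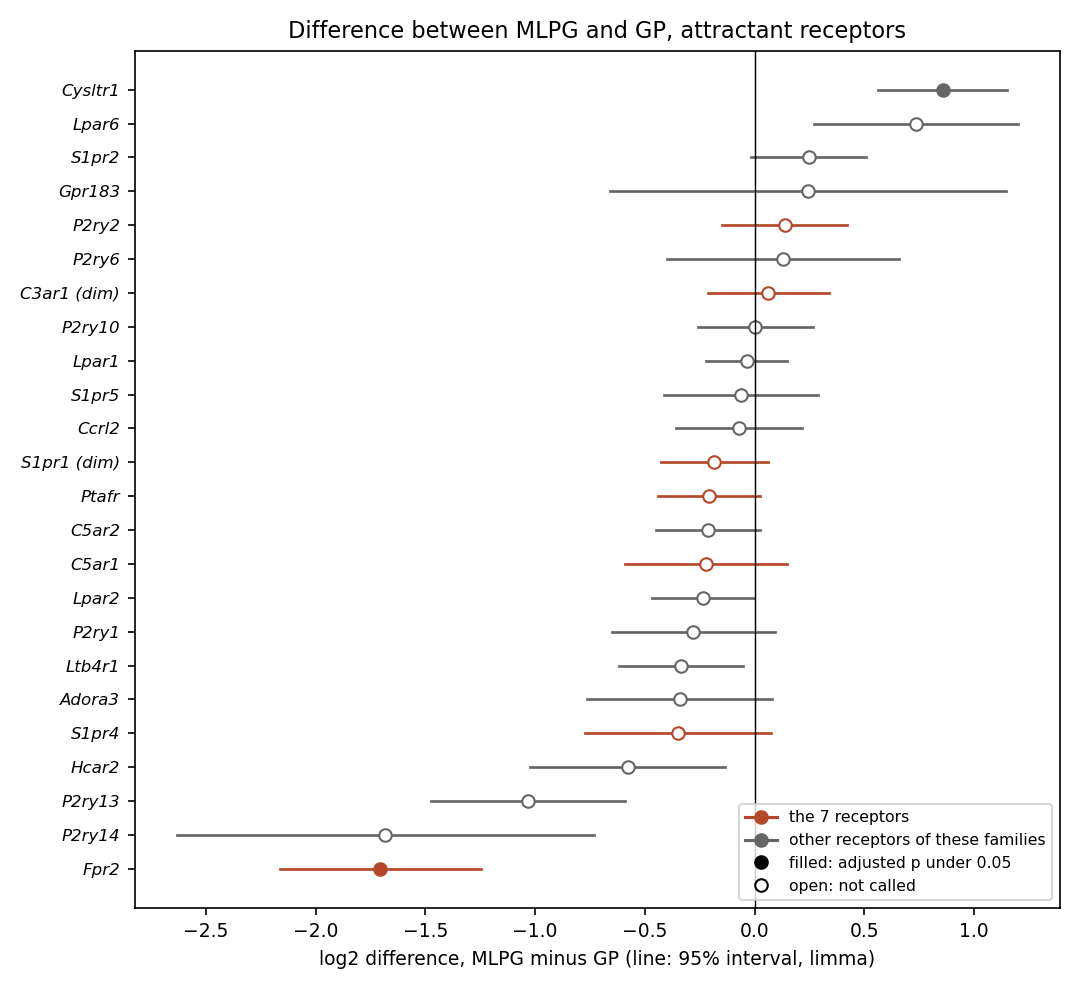
Log2 difference, MLPG minus GP, with its 95% interval from limma, for the 7 receptors in red and the 17 other tested receptors of these families in grey. Filled points have an adjusted p under 0.05: Fpr2 at -1.70 and Cysltr1 at 0.86, at opposite ends; C3ar1 and S1pr1, marked dim, are from the fit without filter.

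For G proteins and lipid kinases that carry the signal of these receptors, no difference passed the test. Of 15 tested, 0 were called (limma, with 2 above and 2 below 0 among those with an unadjusted p under 0.05), and the median log2 difference was -0.06. Gnai2, the main Gi alpha subunit of neutrophils, was at 39411 ± 3204 in MLPG and 44197 ± 3510 in GP (log2 difference -0.17, 95% interval -0.40 to 0.07). Plcb3, a phospholipase C beta that the beta-gamma subunits activate, was at 791 ± 61.8 in MLPG and 1062 ± 98.6 in GP (log2 difference -0.42; adjusted p = 0.15 unblocked and 0.042 blocked, limma). Gng2, a gamma subunit, was at 1021 ± 67.3 in MLPG and 783 ± 71.7 in GP (log2 difference 0.39, adjusted p = 0.17, limma). Gnb2, a beta subunit, differed by -0.30 (0.19), and Gng10, another gamma subunit, by 0.23 (0.34).

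Rac proteins, exchange factors and Src-family kinases of migration had 17 tested genes, of which 0 were called (limma, with an unadjusted p under 0.05 for 1 above and 3 below 0). Their median log2 difference was -0.13, with 14 of the 17 below 0, beside 7451 of 15440 features. Rac2, the Rac protein of blood cells, was at 23113 ± 786 in MLPG and 27776 ± 2515 in GP (log2 difference -0.26, adjusted p = 0.27, limma). Dock2, its exchange factor, differed by -0.28, Fgr, a kinase, by -0.55, and Vav3, another exchange factor, by 0.25, each with an adjusted p of 0.28 (limma). The value of Fgr was -0.29 without GP replicate 1.

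Arrestins, receptor kinases and RGS proteins, which switch the receptors off, had 11 tested genes and 0 calls (limma, with an unadjusted p under 0.05 for 1 above and 2 below 0), with a median of -0.13 and 10 of the 11 below 0. Blocked on replicate number, 3 were called, 1 higher and 2 lower. Arrb2, a beta-arrestin, was at 16079 ± 2101 in MLPG and 23957 ± 3275 in GP (log2 difference -0.58; adjusted p = 0.13 unblocked and 0.035 blocked, limma). Rgs10 was at 5464 ± 976 in MLPG and 3425 ± 802 in GP (log2 difference 0.68; adjusted p = 0.18 unblocked and 0.013 blocked). Rgs1 was at 459 ± 209 in MLPG and 913 ± 323 in GP (log2 difference -1.05; adjusted p = 0.30 unblocked and 0.0062 blocked), with its 3 probes between -1.05 and -0.34. Without MLPG replicate 3, which read 218 against 576 and 583 on the other MLPG arrays, the difference of Rgs1 was -0.58. Without GP replicate 2, Rgs10 was called unblocked (adjusted p = 0.046, limma). Rgs10 and Rgs1 both speed the turn-off of Gi proteins, and their differences had opposite signs.

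Genes that make, remove or encode ligands had 18 tested members and 0 calls (limma, with an unadjusted p under 0.05 for 3, all below 0), with a median of -0.02. Anxa1, whose protein is a ligand of Fpr2, was at 6980, 7591 and 7137 on MLPG arrays 1 to 3 and at 13646, 8591 and 8580 on GP arrays 1 to 3 (log2 difference -0.47, adjusted p = 0.28, limma). The groups did not overlap, and GP replicate 1 stood apart from the other GP arrays; without it the difference was -0.25. Camp, the precursor of a cathelicidin peptide whose human form acts on FPR2 (Camp is also on the neutrophil list), was at 48610 ± 3253 in MLPG and 59581 ± 4345 in GP (log2 difference -0.29, adjusted p = 0.24, limma). Lpcat2, which makes platelet-activating factor, was at 896 ± 44.1 in MLPG and 1368 ± 256 in GP (log2 difference -0.59; adjusted p = 0.13 unblocked and 0.046 blocked, or 0.022 unblocked without GP replicate 2, limma). Sphk1, which makes sphingosine 1-phosphate, was at 180 ± 45.1 in MLPG and 243 ± 48.0 in GP (log2 difference -0.44, adjusted p = 0.36, limma), with probes from -0.44 to 0.05.

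**Figure D4:**
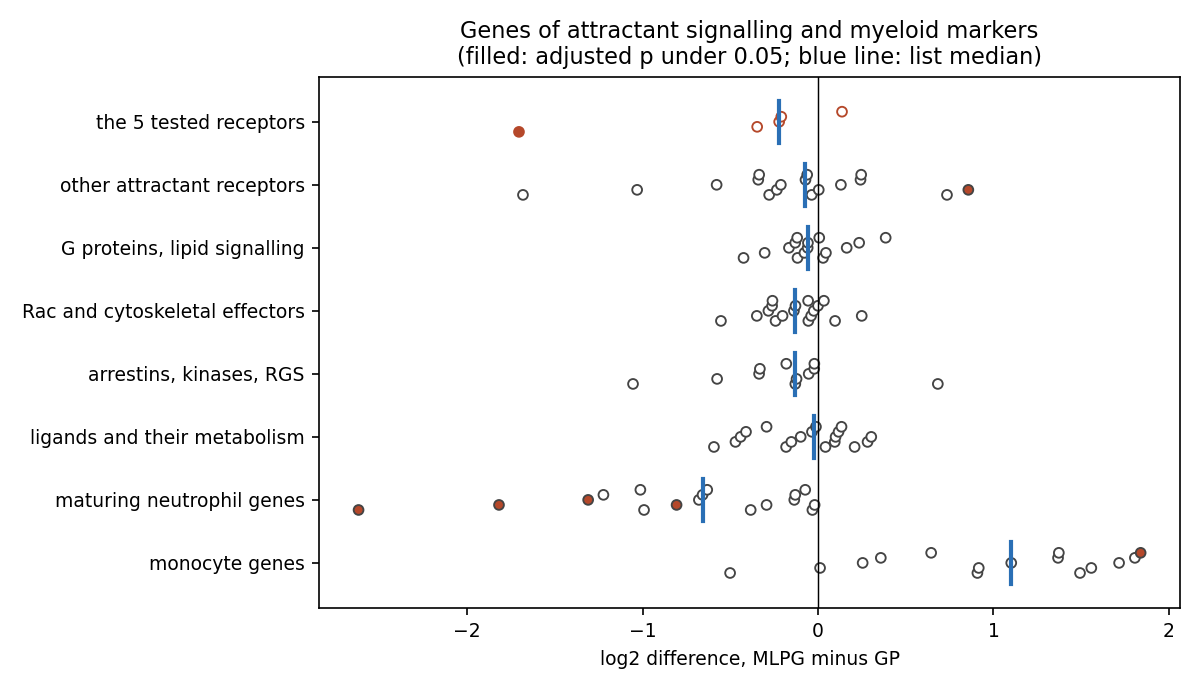
Log2 difference, MLPG minus GP, of every tested gene in each list, 1 point a gene, filled where the adjusted p is under 0.05, with the list median as a blue line. The medians of the signalling and ligand lists lie between -0.13 and -0.02, against -0.66 for maturing neutrophil genes and 1.10 for monocyte genes.

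Genes of maturing neutrophils that passed the test were lower in MLPG, as Fpr2 was, and the 1 monocyte gene that passed was higher. Of 17 tested neutrophil genes, 4 were called lower and 0 higher (limma), all 17 had a difference below 0, and the median was -0.66; blocked on replicate number, 9 were called lower. The called genes were Mmp9, the gelatinase of late granules (-2.62), Retnlg (-1.82), Mmp25 (-1.31) and Slc2a3, a glucose transporter (-0.81). Cxcr2, the chemokine receptor of neutrophils, differed by -1.01 on its brighter probe (adjusted p = 0.054 unblocked and 0.016 blocked, limma) and by 0.01 on the other; it was also called without GP replicate 2 (0.0099). The 3 brightest genes of the list, Lcn2, Ltf and Ngp, all of granule proteins, differed by -0.03, -0.02 and -0.07 near the top of the scale. The dimmer probe of Ltf differed by -1.22. Each of the 4 unblocked calls was lost without any 1 of the MLPG arrays or without GP replicate 3 (adjusted p from 0.072 to 0.16), and those of Retnlg and Slc2a3 also without GP replicate 1 (0.082 for both). Of 15 monocyte genes, Klf4, a factor of monocyte development, was called higher (1.84; the call was lost without any 1 of the MLPG arrays or GP replicate 3, adjusted p from 0.091 to 0.14), 13 had an unadjusted p under 0.05, 12 above and 1 below 0, and the median was 1.10. Blocked on replicate number, 10 were called higher and 0 lower. Of the 3 brightest, F13a1 differed by 1.37 and Cd14 by 0.01, and neither passed unblocked with all arrays; F13a1 was called without GP replicate 2 (adjusted p = 0.027, limma). Lyz2, the lysozyme gene and brightest of the list, was the 1 below 0, at 38513 ± 10956 in MLPG and 53156 ± 7250 in GP (log2 difference -0.50, adjusted p = 0.34, limma; -0.24 without MLPG replicate 3). Every MLPG array of Lyz2 was below every GP array. The summed intensity of the neutrophil list ranged from 397799 to 434466 in MLPG and from 484136 to 549116 in GP, and that of the monocyte list from 93061 to 124533 in MLPG and from 83519 to 97089 in GP. Of the monocyte sums, Lyz2 alone, which ran the other way, gave 25988 to 46313 in MLPG and 47689 to 61380 in GP.

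Of the markers of other marrow cells, 5 of 7 tested eosinophil genes and 1 of 7 basophil and mast cell genes were called, all lower in MLPG (limma). The eosinophil genes were Prg2 (-3.96), Prg3 (-4.34), Ear6 (-5.18), Ear10 (-3.38) and Epx (-4.16), all of granule proteins, and the basophil and mast cell gene was Gata2 (-1.78). The call of Prg2 held without each array in turn, and the other 5 calls were each lost without any 1 of the MLPG arrays or without GP replicate 3 (adjusted p from 0.071 to 0.16). The summed intensity was 4884 to 8014 in MLPG and 56916 to 133806 in GP for the eosinophil list, and 17431 to 26782 in MLPG and 29886 to 43582 in GP for the basophil and mast cell list. Most of the latter sum was Hdc, at 15505 to 24576 in MLPG and 26270 to 40278 in GP. Blocked on replicate number, 6 eosinophil genes and 5 basophil and mast cell genes were called, all lower.

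For erythroid and platelet markers the sum was 2172 to 4447 in MLPG and 4971 to 9004 in GP, with 0 of 9 called, 4 lower at an unadjusted p under 0.05, and 5 called lower with the block (limma). For lymphocyte markers it was 41752 to 48301 in MLPG and 32120 to 43664 in GP, most of it from 1 gene, Nkg7, at 43089 ± 3392 in MLPG and 35905 ± 5525 in GP. Of 4 tested lymphocyte genes 0 were called (limma), and the 2 with an unadjusted p under 0.05, Cd3d (-0.78) and Klrd1 (-0.37), were both below 0. Cd3d, a part of the T cell receptor complex, was called lower with the block (adjusted p = 0.021) and without GP replicate 2 (0.042). For marrow macrophage markers the sum was 33771 to 44165 in MLPG and 35763 to 54675 in GP, and for stem cell markers 8093 to 9663 in MLPG and 7946 to 13819 in GP. Of these 8 and 6 tested genes 0 were called, with the block or without it (limma). In each list 1 gene was lower at an unadjusted p under 0.05 (limma). These were Hmox1 (-0.75) of the macrophage list and Gata1 (-0.56, and -0.02 on its other probe) of the stem cell list. Most of the stem cell sum was Kit, at 6641 to 8162 in MLPG and 6418 to 11577 in GP. Of the defining markers, Siglecf and Ccr3 of eosinophils, Cd3e, Cd3g and Ms4a1 of lymphocytes and Pf4 and Ppbp of platelets lay below the filter.

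GP replicate 1, the array with the highest Fpr2, had the highest sums of the GP arrays for neutrophil (549116), macrophage (54675), basophil and mast cell (43582) and erythroid and platelet markers (9004), and the lowest for eosinophil (56916) and lymphocyte markers (32120). Most of its basophil and mast cell sum was Hdc, at 40278. Among the GP arrays, Gata2 (440), Prss34 (1074), Cpa3 (338) and Fcer1a (324) were lowest on GP replicate 1. Ms4a2 (304) was highest there, and Mcpt8 (507) lay between. Most of the lymphocyte sum on GP replicate 1 was Nkg7, at 30119. Klrd1 (174) and Cd79b (915) were also lowest on that array, and Cd3d (363) was highest. Most of its erythroid and platelet sum was Hba-a1, at 5869. Alas2, Car1, Klf1 and Gp1bb were also highest on GP replicate 1, Itga2b (258) and Gp5 (174) were lowest, and Gp9 and Epor lay between. C1qb, a complement subunit gene of macrophages, read 1384 on GP replicate 1, against 192 and 206 on GP replicates 2 and 3. Most of the macrophage sum on GP replicate 1 was Slc40a1 (31610), followed by Vcam1 (16293). Both were highest there among the GP arrays, as were C1qa, C1qc, Hmox1 and Timd4. Adgre1, of the same list, was lowest there, at 940 against 1200 and 1202. Without GP replicate 1 the difference of Fpr2 was -1.54 and was called (adjusted p = 0.018, limma). The part of these cells in the difference of Fpr2 was not tested.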

How the data were processed

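RNA of 6 sorted mouse marrow samples was read on Illumina bead arrays, 1 sample an array. The authors deposited normalized intensity values for 45281 probes, on a linear scale by their range. The submitters' processing notes name GenomeStudio; a version, a background step or a build is not given in the sources used here. The 6 columns share 1 distribution (minimum 88.2, median 179.3, maximum 71674), as quantile normalization gives. A second table's 12 columns carry no sample label and were not used; log2 of the authors' normalized values replaced the planned neqc step.

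Symbols came from the platform annotation (34885 probes with 1 symbol, 18 with several, 10378 with none); 34807 matched Entrez genes of GRCm38.p6 and 0 symbols changed. Probes with a mean log2 value above the median of all probes (7.48, an intensity of 179) were kept, and the brightest stood for a gene, which gave 15440 features, 11348 of them named. Tests used limma 3.58.1 (lmFit, eBayes; R 4.3.3), MLPG minus GP; all p-values are two-sided and adjusted over all features. The script was tested on simulated data.

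The receptors and the gene lists were chosen with earlier results of these data known. The rule for named genes took all 7 receptors and, as those that could be printed, from each list the called genes and the 4 with the smallest p or, for markers, the 3 brightest, and for each tested receptor the 3 nearest profiles. Not all of these are printed. C5ar2, Ltb4r1, S1pr2, S1pr5, the Fpr-rs genes, Gnai2, Cxcr2, Klrd1 and C1qb fall outside this rule and were chosen after their values were seen. The same holds for Cpa3, Fcer1a, Ms4a2, Hmox1, Gata1, C1qa, C1qc, Timd4, Alas2, Klf1, Gp1bb, Itga2b, Gp5 and Epor. Markers named only as below the filter fall outside the rule too. Replicate numbers run from 1 to 3 in both groups, and deviations from group means correlated at 0.38, 0.30 and 0.47 between same-numbered arrays, all over 0.1, so the numbers were taken to pair the arrays, from the data and not from the labels. Deviations cancel out within each group, so some array pairs had to correlate positively, and the numbers may not mark true pairs. Every blocked result rests on this pairing. The fit with this replicate block is given where it changes a call or a list's count. Array numbers, 3 a group, limit the precision. No protein sequences were used here.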

Additional observations from a re-analysis of the deposited data

How the results depend on the processing

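Over 15 alternatives (13 for C3ar1 and S1pr1, which a filter removes), Fpr2 kept its direction in all 15 and its call in 11; the log2 difference ran from -1.82 to -1.51 when single arrays were left out, where 4 of 6 fits lost the call. C5ar1, Ptafr, S1pr1, S1pr4 and P2ry2 kept direction and stayed uncalled in each, while C3ar1 changed sign without MLPG replicate 1 or GP replicate 2, within a range of -0.039 to 0.15. The count of receptors called was 1, and 0 to 1 when single arrays were left out. The count of features called was 79 in the main analysis, 146 with no filter, 630 with the replicate block, 220 with array quality weights, and from 2 to 349 when single arrays were left out: 2, 3 and 2 without MLPG replicates 1, 2 and 3, 349 without GP replicate 2 and 22 without GP replicate 3. The replicate block changed no call of the 7 receptors. For 63 other genes tested in the main analysis and followed over the alternatives, 930 of 939 fits kept the sign. The 63 hold Csf1r and Ms4a6d, which are not named above. They leave out marker genes that are, such as Hdc, Prss34, Cpa3 and Fcer1a, which were called lower with the block. Of the 63, 13 of the 14 called genes, all but Prg2, lost the call at least once. With the block, 13 of the 49 uncalled genes among the 63 gained a call. Turned signs were those of Cd14 (-0.0050 with cyclic loess, -0.11 with array quality weights, and from -0.24 to 0.17 when single arrays were left out), Ctu1 (from -0.033 to 0.24 when they were left out), S1pr5 (from -0.20 to 0.034) and Ltf (from -0.045 to 0.0043). With its probes averaged, Ltf differed by -0.62 (adjusted p = 0.17, limma). P2ry13 was also called with no filter (adjusted p = 0.048, limma) and, with array quality weights, so were P2ry13 (0.024) and P2ry14 (0.026). Cxcr2 and Cd3d were called with no filter (0.031 and 0.034), an intensity trend (0.035 and 0.036) and array quality weights (0.018 and 0.029). Cd3d was also called with cyclic loess (0.048), and F13a1 with array quality weights (0.046). With robust eBayes and all arrays kept, Retnlg (0.052), Gata2 (0.052) and Epx (0.054) lost the call (limma). The causes were not tested. C3ar1, S1pr1 and the second P2ry2 probe lie below the filter, near the low end of the arrays.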
